A study of Mus musculus with 12 samples.

Results

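The 40 genes described here encode the machinery that copies chromosomal DNA, taken from 19057 genes named on an Illumina mouse bead array. They were chosen by symbol: every probe whose gene symbol in the platform annotation is on the list was a member. All 40 genes had a probe, 80 probes in all. A probe counted as measured when some group had a detection p-value under 0.05 on each of its 3 arrays, which kept 63 of the 80 probes and 38 of the 40 genes. Pola1, the catalytic subunit of DNA polymerase alpha, was detected on 0 of the 12 arrays. Pole2, an accessory subunit of polymerase epsilon, had no probe that passed. Neither was tested, and below they enter the promoter counts only. By role there were 5 genes of origin licensing, 11 of the helicase, 7 measured genes of polymerases and primase out of 9, 11 of the clamp, clamp loader, single-strand binding and flap processing, and 4 of nucleotide supply.

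The cells were male E14 mouse embryonic stem (ES) cells of strain 129/Ola, grown without feeder cells, and their total RNA was labelled and hybridised to 12 one-colour arrays. Deleted cells carried HDAC1-/-; HDAC2-/wt, so 1 allele of Hdac2 remained, and were taken at day 4 after 4-hydroxytamoxifen (OHT, 1 µM for 16 h) switched on CreER, a tamoxifen-activated Cre fusion protein. Wild type cells were taken at day 0, and OHT is the agent listed for all 12 samples. Each genotype was grown for 4 days without leukaemia inhibitory factor (LIF), the cytokine that holds mouse ES cells undifferentiated, or with it. This gave 4 groups of 3 arrays: deleted cells without LIF, deleted cells with LIF, wild type cells without LIF and wild type cells with LIF. Deletion and sampling day cannot be told apart, since they split the samples in the same way. All groups come from 1 cell line, and the labels do not say whether a group is 3 separate cultures, so p-values may measure technical spread.

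The arrays detected 14872 to 18907 probes each. No probe was named Hdac1, and the measured probe of Hdac2 read 10.85 to 11.17 in deleted cells without LIF, 11.05 to 11.25 in deleted cells with LIF, 11.03 to 11.26 in wild type cells without LIF and 11.24 to 11.45 in wild type cells with LIF, in log2 intensity. Those ranges overlap, and where that probe lies relative to the removed sequence is not known, so the deletion was not checked by these values. All 9 ES cell markers looked at were detected on all 12 arrays, in each group. After LIF withdrawal in wild type cells, Esrrb (log2 fold change -2.55, adjusted p = 3.25e-07) and Zfp42 (-2.56, adjusted p = 4.13e-05), both genes of undifferentiated ES cells, fell. The sample names of the deposited tables conflict between the column numbers of the non-normalized table and the accession keys of the processed table. They give 12 of 12 arrays the same genotype, 0 of 12 the same culture and 0 of 12 the same replicate number. Values here follow the accession keys. Under the other naming, the deletion comparisons would exchange cultures, and each difference between cultures would change sign. The differences of all 9 ES cell markers, below 0 on withdrawal in both genotypes as named here, would then be above 0. Which naming is right was not tested. The replicate numbers, on which the blocked fit below rests, would change as well.

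A chromosome is licensed for copying in G1, when the origin recognition complex with Cdc6 and Cdt1 loads the ring of Mcm2 to Mcm7 onto DNA. In S phase the ring is activated by joining with Cdc45 and the GINS complex, primase with polymerase alpha starts each strand, and polymerases epsilon and delta extend it, held by the PCNA clamp that replication factor C loads. Ribonucleotide reductase, thymidylate synthase and thymidine kinase supply the deoxynucleotides. Many of these genes are transcribed at the G1/S boundary by E2F factors, which class I histone deacetylases can repress together with pocket proteins, and mouse ES cells are known for a short G1 and a large share of cells in S phase. In bulk RNA, fewer cells in S phase and less of an RNA per cell cannot be told apart.

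The promoters of 5 members are shown, chosen by the tests below and not by their motifs. Their brightest probe passed in at least 2 comparisons, or in at least 1 for the ring genes Mcm2 to Mcm7. Each is 300 bases, 250 before and 50 after the start, from RefSeq on build GRCm38.p6, written 5′ to 3′ on the strand of the gene. Capitals mark any of the E2F versions TTTCCCGC, TTTCGCGC, TTTGCCGC and TTTGGCGC, and CCAAT, the box bound by NF-Y, each on either strand.
Mcm3, chr1:20820263-20820562, minus strand: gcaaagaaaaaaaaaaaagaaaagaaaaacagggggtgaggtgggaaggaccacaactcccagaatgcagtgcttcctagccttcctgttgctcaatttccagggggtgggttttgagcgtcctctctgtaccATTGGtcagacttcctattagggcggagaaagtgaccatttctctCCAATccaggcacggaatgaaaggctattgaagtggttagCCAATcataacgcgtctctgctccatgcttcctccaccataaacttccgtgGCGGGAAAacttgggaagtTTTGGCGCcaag
Mcm5, chr8:75109259-75109558, plus strand: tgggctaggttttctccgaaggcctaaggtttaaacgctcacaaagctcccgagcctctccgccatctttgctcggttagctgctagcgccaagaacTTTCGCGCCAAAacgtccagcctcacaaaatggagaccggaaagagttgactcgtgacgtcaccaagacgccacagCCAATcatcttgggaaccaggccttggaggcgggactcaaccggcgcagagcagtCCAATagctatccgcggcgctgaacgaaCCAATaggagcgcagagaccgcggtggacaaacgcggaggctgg
Mcm6, chr1:128359656-128359955, minus strand: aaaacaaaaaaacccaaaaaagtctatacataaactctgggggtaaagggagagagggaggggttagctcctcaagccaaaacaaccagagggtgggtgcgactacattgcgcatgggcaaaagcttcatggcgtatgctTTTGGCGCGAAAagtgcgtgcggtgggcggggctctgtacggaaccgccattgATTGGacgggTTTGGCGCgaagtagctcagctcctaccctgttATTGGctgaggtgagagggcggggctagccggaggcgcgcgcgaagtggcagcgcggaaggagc
Rpa1, chr11:75348334-75348633, minus strand: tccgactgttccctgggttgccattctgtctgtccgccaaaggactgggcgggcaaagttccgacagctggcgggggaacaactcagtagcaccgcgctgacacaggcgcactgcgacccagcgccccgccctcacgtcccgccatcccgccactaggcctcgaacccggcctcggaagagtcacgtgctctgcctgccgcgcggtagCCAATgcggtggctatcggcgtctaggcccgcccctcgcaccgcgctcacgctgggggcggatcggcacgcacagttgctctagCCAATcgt
Rrm2, chr12:24708004-24708303, plus strand: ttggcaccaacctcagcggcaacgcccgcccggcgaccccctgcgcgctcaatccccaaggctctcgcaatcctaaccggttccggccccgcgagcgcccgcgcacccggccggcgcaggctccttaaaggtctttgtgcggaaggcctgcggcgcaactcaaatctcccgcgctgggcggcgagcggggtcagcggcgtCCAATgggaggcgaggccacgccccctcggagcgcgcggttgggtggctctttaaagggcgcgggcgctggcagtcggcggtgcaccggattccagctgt

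Mcm3 held 2 E2F matches and 3 CCAAT matches, and Mcm5 held 2 and 3, its E2F matches overlapping on opposite strands. Mcm6 held 3 E2F matches, a pair of them overlapping, and 2 CCAAT matches. Rpa1 and Rrm2 held 0 E2F matches, with 2 CCAAT matches in Rpa1 and 1 in Rrm2. RefSeq promoters were found for 33 of the 40 genes. An E2F version stood in 14 of those 33 (42.4%), against 704 of 27025 genes with a promoter (2.6%). CCAAT stood in 21 of the 33 (63.6%), against 11096 of 27025 genes with a promoter of the same length (41.1%). In all these counts a gene with more than 1 promoter held a motif if any of its promoters did. Of the 8 genes with a promoter and a probe called in some comparison, 3 (37.5%) held an E2F version, against 11 of the 25 others (44.0%). For CCAAT these counts were 7 of 8 (87.5%) and 14 of 25 (56.0%). The 25 others include Pola1 and Pole2, which were not tested. Each of them held 1 E2F match, and Pola1 also held 1 CCAAT match. These are letter matches in a fixed window and no measure of binding.

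In cells with LIF, the deleted genotype had less Mcm3 RNA than the wild type, and 37 of the 38 measured genes did not pass the test. Mcm3 encodes a subunit of the helicase ring. Its probe read 8.96, 8.98 and 8.95 on deleted arrays 1 to 3, against 9.32, 9.54 and 9.26 on wild type arrays 1 to 3, in log2 intensity. All 3 deleted arrays were below all 3 wild type arrays. The log2 fold change was -0.41 ± 0.11 (standard error; 95% interval -0.64 to -0.17; limma, adjusted p = 0.0406), which is 0.754 of the wild type level. With the replicate number as a block it was called too (adjusted p = 0.0178). The call was lost on leaving out any of 8 of the 12 arrays: each deleted array with LIF, wild type arrays 2 and 3 with LIF, wild type arrays 2 and 3 without LIF, and deleted array 2 without LIF. Over those fits the adjusted p reached 0.135 and the difference stayed between -0.46 and -0.32.

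That is 1 of 38 genes lower (2.63%) and 0 higher, where 2.77% of all 9527 measured genes were called lower and 5.93% higher, so the share of these genes called lower was near that of all genes. At an unadjusted p under 0.05 there were 7 of the 38, against 2477 of all 9527 genes. All 3 deleted arrays were below all 3 wild type arrays for 12 of the 38, against 1235 of all 9527 genes. The block, which takes out differences shared by arrays of the same number, called 5 lower (13.2%), against 7.56% of all genes, and 0 higher, against 12.1%. The 5 were Mcm3, the helicase activation factor Mcm10, the polymerase epsilon catalytic subunit Pole, the large ribonucleotide reductase subunit Rrm1 and thymidylate synthase Tyms. Differences below 0 were found in 27 of the 38 genes (71.1%), against 46.2% of all genes, with a median of -0.13 against 0.02.

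Mcm10 was measured by 3 kept probes, which disagreed on the call. The brightest read 10.93, 11.06 and 11.03 on deleted arrays with LIF, against 11.28, 11.36 and 11.50 on wild type arrays with LIF. These groups did not overlap, with a difference of -0.37 (adjusted p = 0.135; 0.027 in the blocked fit). The second probe read 8.93, 8.90 and 8.88 on deleted arrays, against 9.15, 9.53 and 9.57 on wild type arrays. That probe was called lower (-0.51 ± 0.12, adjusted p = 0.0257). It was not called without any deleted array with LIF or without wild type array 2 or 3 with LIF, where the adjusted p reached 0.0999. The third, near the detection floor, differed by 0.14 (adjusted p = 0.612).

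In the polymerase group, Pole read 8.45, 8.57 and 8.27 on deleted arrays, against 8.68, 8.88 and 8.96 on wild type arrays with LIF. The highest deleted array was below the lowest wild type array, but the difference of -0.41 ± 0.15 did not pass (adjusted p = 0.11; 0.0267 in the blocked fit). In nucleotide supply, Tyms read 9.18, 9.52 and 9.47 on deleted arrays, against 9.36, 10.08 and 10.21 on wild type arrays. These groups overlapped through wild type array 1, and the difference of -0.49 ± 0.20 did not pass (adjusted p = 0.161; 0.0106 in the blocked fit). Rrm1 read 10.40, 10.18 and 10.20 on deleted arrays and 10.57, 10.59 and 10.55 on wild type arrays with LIF, without overlap (-0.31, adjusted p = 0.0788). Pcna, the sliding clamp, had the widest spread of the 38 genes, a within-group standard deviation of 0.45. It read 7.12, 7.07 and 7.78 on deleted arrays and 7.53, 7.83 and 8.07 on wild type arrays with LIF. For Pcna the interval of the difference, -1.10 to 0.14, covers both a clear loss and no change (-0.48 ± 0.29, adjusted p = 0.343).

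The 5 origin licensing genes all read below the wild type with LIF, and none passed the test. Orc6, the smallest subunit of the origin recognition complex, differed most, reading 10.80, 10.69 and 10.62 on deleted arrays and 10.87, 10.93 and 11.00 on wild type arrays. These groups did not overlap (-0.23 ± 0.10, adjusted p = 0.176). The 5 licensing differences ran between -0.23 and -0.11, and the 95% intervals of 4 of them stayed within 0.5 log2 units of 0. In contrast to the licensing genes, the 11 clamp, loader and single-strand binding genes had 5 differences below 0 and a median of 0.07. The size of that contrast between roles was not tested.

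**Figure D1:**
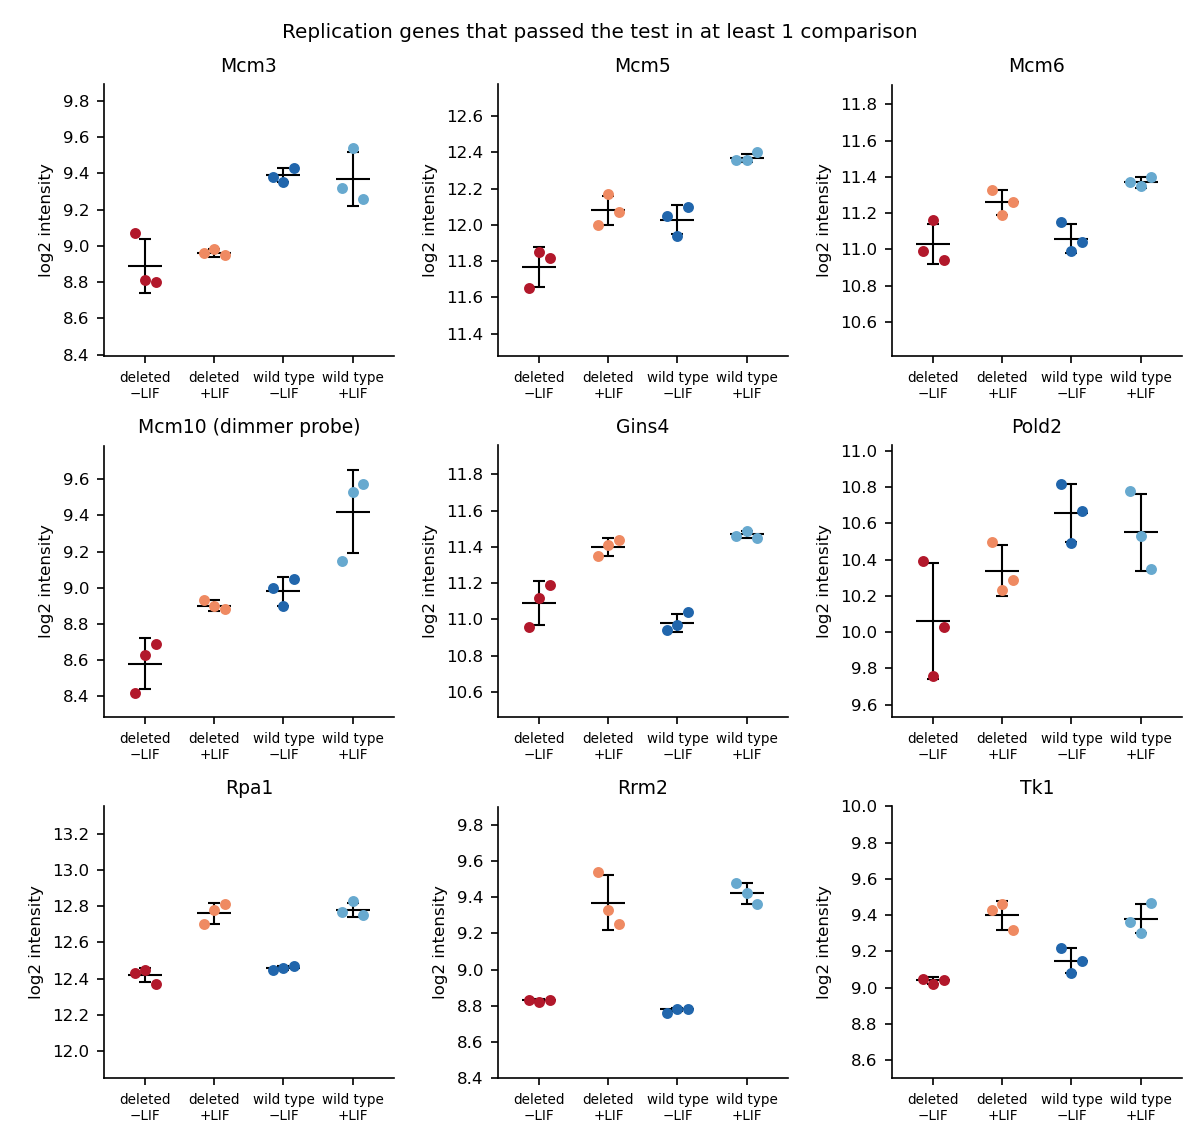
Log2 intensity on each of the 12 arrays (points, one panel per gene, vertical axes of equal span) for genes called in at least 1 comparison (for Mcm10, its second probe), by group, with the mean and standard deviation of 3 arrays. Mcm3 lies lower in both deleted groups, whereas Rrm2 and Rpa1 lie lower in both groups without LIF.

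In cells without LIF, Mcm3 was again lower in deleted than in wild type cells, and so was Pold2, an accessory subunit of polymerase delta. Mcm3 read 9.07, 8.81 and 8.80 on deleted arrays, against 9.38, 9.35 and 9.43 on wild type arrays. All 3 deleted arrays were again below all 3 wild type arrays. The log2 fold change was -0.49 ± 0.11 (95% interval -0.73 to -0.26; adjusted p = 0.0164; 0.00611 in the blocked fit), 0.711 of the wild type level. It missed the threshold without wild type array 3 or deleted array 2 or 3 without LIF, with an adjusted p of up to 0.0733.

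Pold2 read 10.39, 9.76 and 10.03 on deleted arrays without LIF, against 10.82, 10.49 and 10.67 on wild type arrays without LIF. Array 1 was the highest of each group, and the groups did not overlap. The difference was -0.60 ± 0.16 (95% interval -0.95 to -0.25; adjusted p = 0.0373), and the block gave 0.00171. This call was lost without any of 8 arrays, among them every wild type array and deleted arrays 2 and 3 without LIF, and also deleted arrays 2 and 3 and wild type array 2 with LIF. The adjusted p then reached 0.131. With LIF, Pold2 read 10.50, 10.23 and 10.29 on deleted arrays and 10.78, 10.53 and 10.35 on wild type arrays, which overlap (-0.21, adjusted p = 0.472). The interaction for Pold2, the difference between its 2 deletion effects, was -0.39 ± 0.23 and did not pass (adjusted p = 0.807).

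Without LIF, then, 2 of 38 genes (5.26%) were lower in deleted cells and 0 were higher, where 3.85% of all genes were called lower and 5.33% higher. With the block 5 were lower (13.2%), against 9.17% of all genes, and 0 higher, against 10.8%. They were Mcm3, Pold2, Mcm10, Rrm1 and Gins1, a subunit of GINS. At an unadjusted p under 0.05 there were 7 of the 38, against 2505 of all 9527 genes in either direction. All 3 deleted arrays were below all 3 wild type arrays for 6 of the 38, against 1352 of all 9527 genes. Gins1 read 8.24, 8.53 and 8.49 on deleted arrays, against 8.86, 8.77 and 8.74 on wild type arrays without LIF. They did not overlap (-0.37, adjusted p = 0.108). Rrm1 read 10.11, 10.27 and 10.26 on deleted arrays and 10.60, 10.49 and 10.55 on wild type arrays without LIF. It was lower on all 3 deleted arrays here too and missed the threshold (-0.33, adjusted p = 0.0576). Differences below 0 were found in 22 of 38 genes (57.9%), against 49.5% of all genes, with a median of -0.04 against 0.

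The licensing and clamp groups gave nothing past the test without LIF. In licensing the largest difference was that of Cdc6, which read 8.60, 8.61 and 8.68 on deleted arrays and 8.74, 8.91 and 8.67 on wild type arrays (-0.15, adjusted p = 0.547). Among the clamp genes it was that of Fen1, the flap endonuclease, at 9.67, 10.15 and 10.06 on deleted arrays and 10.05, 10.20 and 10.27 on wild type arrays (-0.21, adjusted p = 0.339). Each of these pairs of groups overlapped. Rrm2, the small subunit of ribonucleotide reductase, differed by -0.05 with LIF and 0.05 without it between genotypes, with intervals of -0.27 to 0.17 and -0.17 to 0.27. The other ring subunits were spread: Mcm5 differed by -0.29 with LIF and -0.26 without it (adjusted p = 0.0941 and 0.132), Mcm2 by -0.17 and -0.18, and Mcm4 by 0.04 and -0.01.

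**Figure D2:**
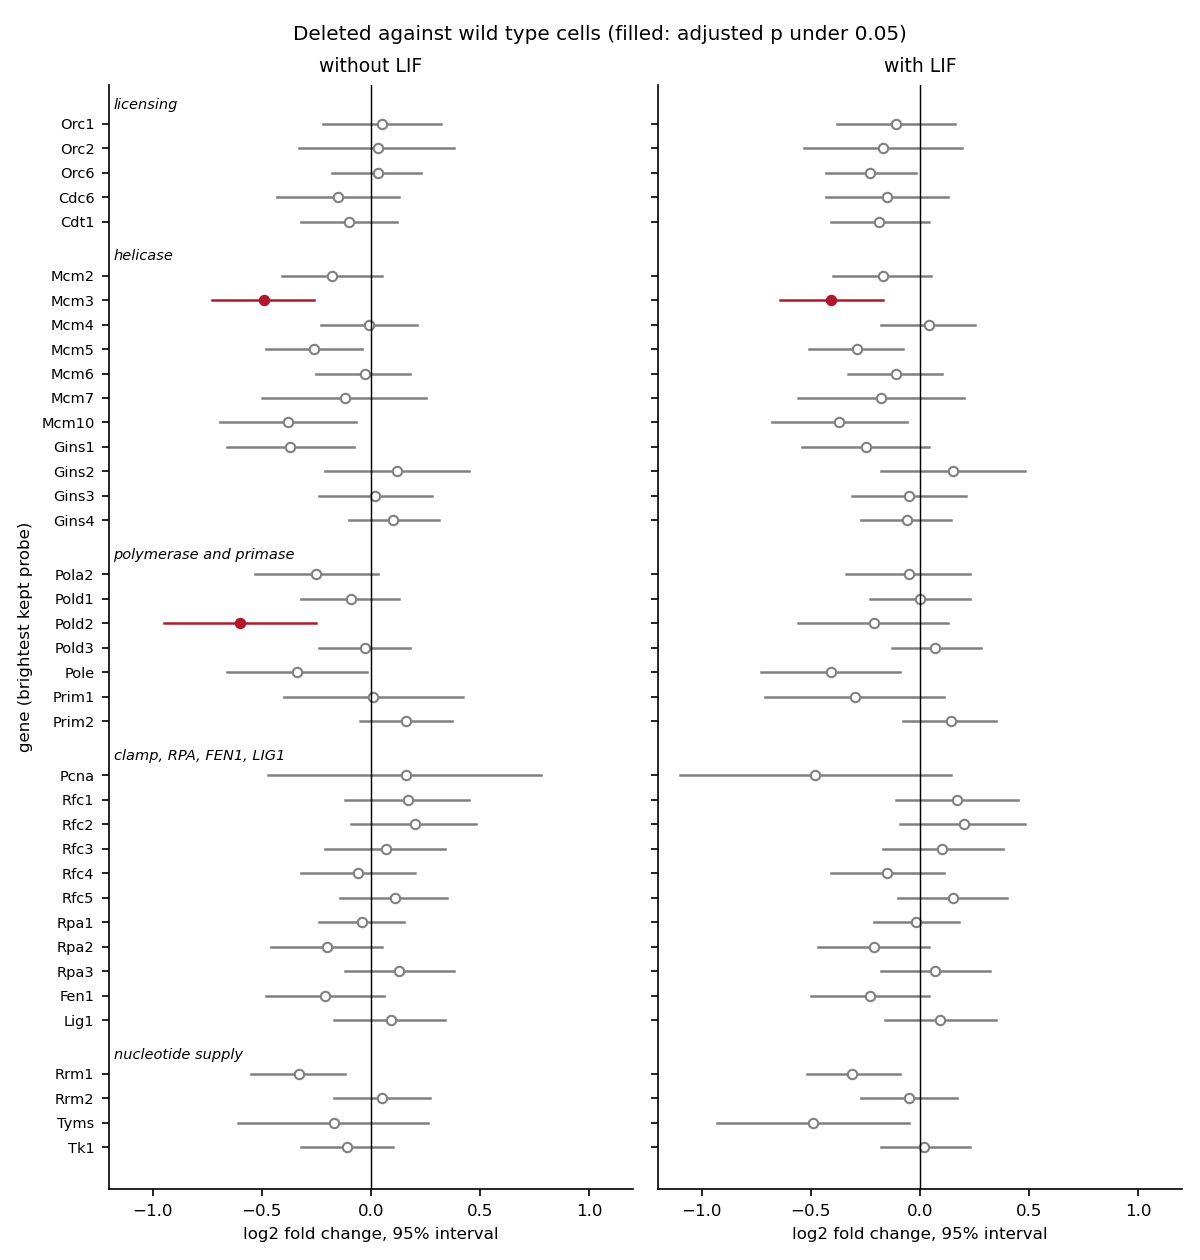
Log2 fold change, deleted over wild type, of each of the 38 measured genes, by role, without LIF (left) and with LIF (right), with 95% intervals. Filled points mark the genes past the threshold, Pold2 and Mcm3 without LIF and Mcm3 with LIF, and most other intervals include 0.

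The deletion effects in the 2 cultures, which share no array, ran together across the 38 genes, with a Pearson r of 0.63 and a Spearman rho of 0.69. Over all 9527 genes r was 0.67 and rho 0.62, so the genes of replication were not set apart by this. Genes are not independent replicates, and arrays of the same number in both cultures may share a source. Below 0 in both cultures were 19 genes, and 8 were above 0 in both.

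LIF withdrawal called more of all genes lower (9.58% in wild type and 5.45% in deleted cells) than the deletion did (2.77% with LIF and 3.85% without it), and the counts among the replication genes had the same order. In wild type cells 5 genes fell: Rrm2, the GINS subunit Gins4, the ring subunits Mcm5 and Mcm6, and Rpa1, the large subunit of the single-strand binding protein RPA. Rrm2 read 8.76, 8.78 and 8.78 on wild type arrays without LIF, against 9.48, 9.42 and 9.36 with LIF. The groups did not overlap, and the difference was -0.65 ± 0.10 (95% interval -0.86 to -0.43; adjusted p = 6e-04), 0.639 of the level with LIF. In wild type cells the Rrm2 call held whichever of the 12 arrays was left out.

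In deleted cells Rrm2 read 8.83, 8.82 and 8.83 without LIF, against 9.54, 9.33 and 9.25 with LIF. Its log2 fold change there was -0.55 ± 0.10 (adjusted p = 0.00387; 0.00124 in the blocked fit), and the call again held whichever array was left out. A second, dimmer probe of Rrm2 did not follow. It read 8.14, 7.93 and 8.26 in deleted cells without LIF and 8.37, 8.09 and 8.19 with LIF. In wild type cells it read 8.37, 8.14 and 8.51 without LIF and 8.74, 8.55 and 8.14 with LIF. Both pairs overlap, and its differences were -0.10 in deleted cells (adjusted p = 0.773) and -0.14 in wild type cells (adjusted p = 0.584). The places of the probes in the transcript were not analysed here, so the Rrm2 result is that of 1 of its 2 probes.

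Gins4 read 10.94, 10.97 and 11.04 on wild type arrays without LIF, against 11.46, 11.49 and 11.45 with LIF. All 3 arrays without LIF were lower (-0.48 ± 0.10, 95% interval -0.69 to -0.27, adjusted p = 0.00363), and the call held whichever array was left out. In deleted cells it read 10.96, 11.12 and 11.19 without LIF and 11.35, 11.41 and 11.44 with LIF. Those groups did not overlap either, but the difference of -0.31 missed the threshold (adjusted p = 0.065; 0.0338 in the blocked fit). The interaction for Gins4 was 0.17 ± 0.14 (adjusted p = 0.895).

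Rpa1, whose product coats the unwound strand, read 12.45, 12.46 and 12.47 on wild type arrays without LIF, against 12.77, 12.83 and 12.75 with LIF. It fell in wild type cells by 0.32 ± 0.09 (adjusted p = 0.0265). In deleted cells it read 12.43, 12.45 and 12.37 without LIF, against 12.70, 12.78 and 12.81 with LIF. It fell there by 0.35 ± 0.09 (adjusted p = 0.0298; 0.0181 in the blocked fit). Neither pair of groups overlapped. The call in wild type cells was lost without wild type array 2 with LIF or any wild type array without LIF (adjusted p up to 0.074), and that in deleted cells without any of the 6 deleted arrays (up to 0.114).

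Mcm5 read 12.05, 11.94 and 12.10 on wild type arrays without LIF, against 12.36, 12.36 and 12.40 with LIF. It was lower on all 3 (-0.34 ± 0.10, adjusted p = 0.0306), but not past the threshold without any of the 6 wild type arrays (up to 0.111). In deleted cells Mcm5 read 11.65, 11.85 and 11.82 without LIF and 12.00, 12.17 and 12.07 with LIF (-0.31, adjusted p = 0.0778; 0.0448 in the blocked fit). Mcm6 read 11.15, 10.99 and 11.04 on wild type arrays without LIF, against 11.37, 11.35 and 11.40 with LIF. These did not overlap (-0.31 ± 0.10, adjusted p = 0.0448). Mcm6 is the least firm of the 5: it was lost without any of 9 arrays (adjusted p up to 0.135), all but deleted arrays 1 and 2 and wild type array 1 without LIF. Its second bright probe differed by -0.14 (adjusted p = 0.476). The rest of the ring did not move with Mcm5 and Mcm6: Mcm2, Mcm3, Mcm4 and Mcm7 differed by -0.02, 0.02, 0.08 and 0.17, none past the test.

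In wild type cells, then, 5 of 38 genes (13.2%) fell on withdrawal and 0 rose, where 9.58% of all genes were called lower and 10.6% higher. At an unadjusted p under 0.05 there were 14 of the 38, against 3172 of all 9527 genes in either direction. All 3 arrays without LIF were below all 3 with LIF for 13 of the 38, against 1613 of all 9527 genes. Without wild type array 2 with LIF, or wild type array 2 or 3 without LIF, the count of called genes was 2, and without wild type array 1 without LIF it was 3. Differences below 0 were found in 27 genes (71.1%), against 49.7% of all genes, with a median of -0.21 against 0. The second probe of Mcm10 fell as well, reading 9.00, 8.90 and 9.05 on wild type arrays without LIF, against 9.15, 9.53 and 9.57 with LIF. It was lower on all 3 (-0.43 ± 0.12, adjusted p = 0.027), where the brightest probe of Mcm10 missed the threshold (-0.34, adjusted p = 0.128). The call of the second probe was lost without any wild type array other than array 1 with LIF, with an adjusted p of up to 0.0975.

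Of the genes that missed the threshold in wild type cells, 5 had an adjusted p between 0.0565 and 0.0857. Orc1, the largest subunit of the origin recognition complex, read 8.23, 8.37 and 8.06 without LIF, against 8.49, 8.48 and 8.80 with LIF (-0.37, adjusted p = 0.0574). Rpa2, the middle RPA subunit, read 8.95, 8.69 and 8.88 without LIF, against 9.11, 9.30 and 9.13 with LIF (-0.34, adjusted p = 0.0648). Neither pair overlapped. Orc6 read 10.68, 10.59 and 10.73 without LIF, against 10.87, 10.93 and 11.00 with LIF (-0.26, adjusted p = 0.0801). Fen1 read 10.05, 10.20 and 10.27 without LIF, against 10.57, 10.46 and 10.48 with LIF (-0.33, adjusted p = 0.0857). These groups did not overlap either. The catalytic subunit of polymerase delta, Pold1, went the other way, with 11.04, 10.84 and 11.00 on wild type arrays without LIF and 10.75, 10.69 and 10.50 with LIF. It was higher on all 3 arrays without LIF and missed the threshold (0.31, adjusted p = 0.0565). The largest difference among the polymerase and primase genes, that of the small primase subunit Prim1, was farther from it, at 6.59, 6.92 and 6.73 without LIF and 7.44, 6.76 and 7.12 with LIF. Those groups overlap near the detection floor of 6.44 to 6.61 (-0.36, adjusted p = 0.226).

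**Figure D3:**
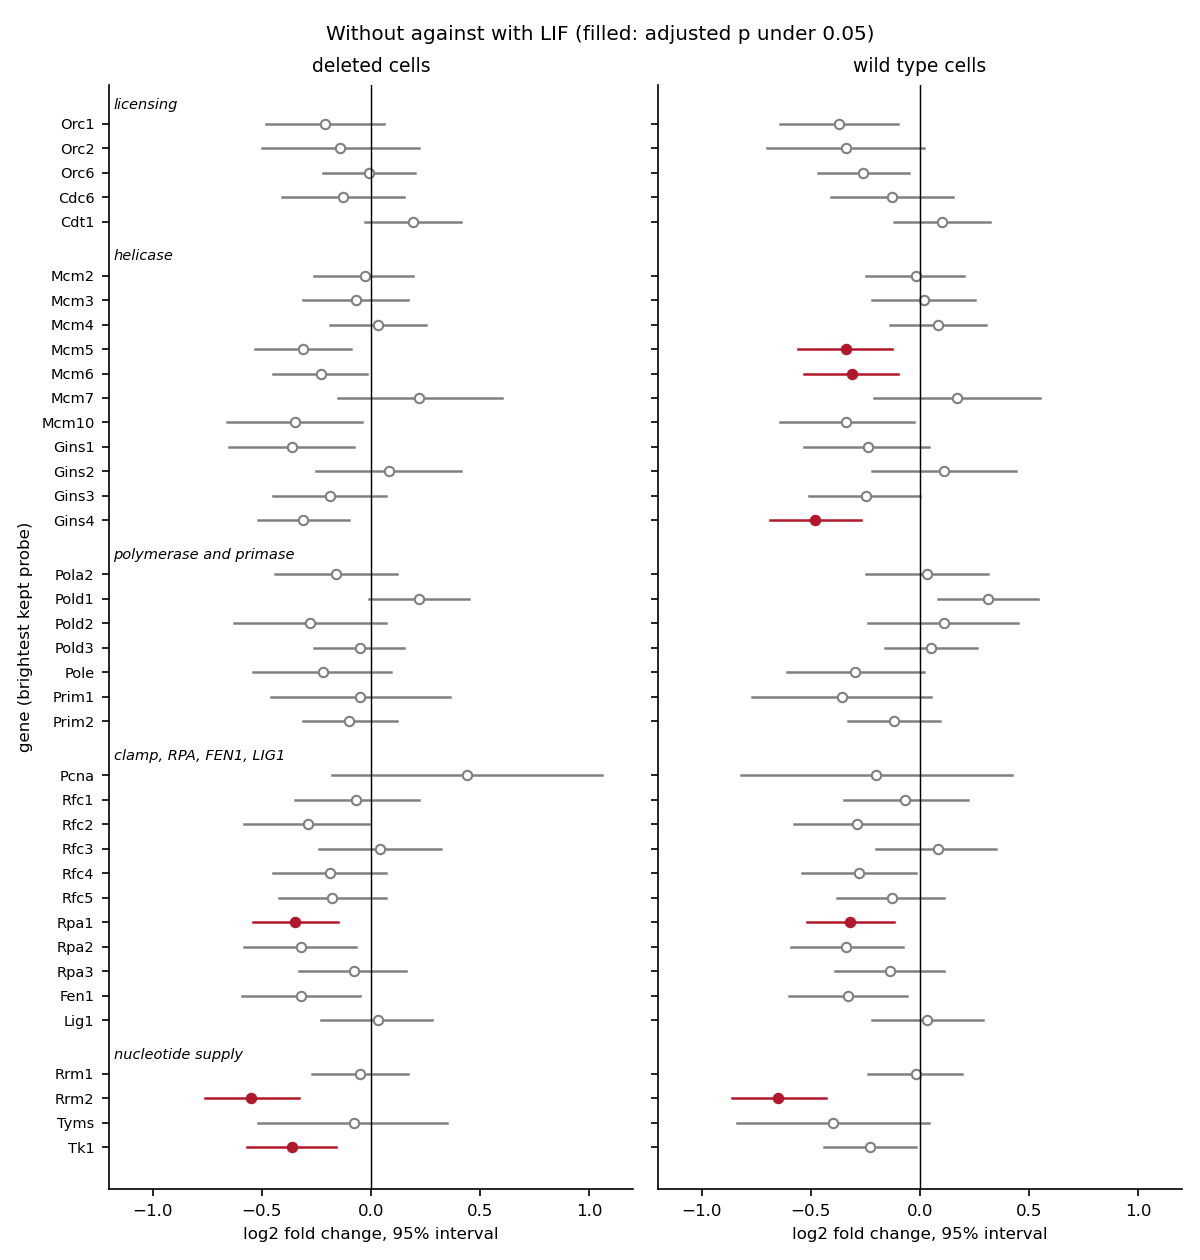
Log2 fold change, without over with LIF, of each of the 38 measured genes, by role, in deleted cells (left) and wild type cells (right), with 95% intervals. Filled points past the threshold are Tk1, Rpa1 and Rrm2 in deleted cells and Gins4, Mcm5, Rpa1, Mcm6 and Rrm2 in wild type cells, all below 0.

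In deleted cells 3 genes fell on withdrawal, Rrm2 and Rpa1 as above and Tk1, the thymidine kinase of the salvage pathway. Tk1 read 9.05, 9.02 and 9.04 on deleted arrays without LIF, against 9.43, 9.46 and 9.32 with LIF. The groups did not overlap (-0.36 ± 0.10, 95% interval -0.57 to -0.16, adjusted p = 0.0314; 0.0184 in the blocked fit). The Tk1 call was lost without any of the 6 deleted arrays (adjusted p up to 0.124). In wild type cells Tk1 read 9.22, 9.08 and 9.15 without LIF and 9.36, 9.30 and 9.47 with LIF (-0.23, adjusted p = 0.123). Its dimmer probe differed by -0.23 in deleted cells (adjusted p = 0.396).

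These 3 are 7.89% of the 38 genes, with 0 higher, where 5.45% of all genes were called lower and 4.72% higher. At an unadjusted p under 0.05 there were 11 of the 38, against 2304 of all 9527 genes in either direction. All 3 arrays without LIF were below all 3 with LIF for 12 of the 38, against 1673 of all 9527 genes. Without any 1 of the 6 deleted arrays the count of called genes was 1, Rrm2. With the block 7 fell (18.4%), against 9.74% of all genes, and 0 rose, against 8.36%. They were Rrm2, Rpa1, Tk1, Gins1, Gins4, Mcm5 and Mcm10. Gins1 read 8.24, 8.53 and 8.49 on deleted arrays without LIF and 8.78, 8.85 and 8.72 with LIF, without overlap (-0.36, adjusted p = 0.118; 0.0466 in the blocked fit). Differences below 0 were found in 30 genes (78.9%), against 53.8% of all genes, with a median of -0.13 against -0.02. Pcna had the largest difference above 0 and was not past the test, with 7.35, 8.01 and 7.94 on deleted arrays without LIF and 7.12, 7.07 and 7.78 with LIF (0.44 ± 0.29, adjusted p = 0.429).

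The withdrawal effects in the 2 genotypes, which share no array, had a Pearson r of 0.67 and a Spearman rho of 0.66 over the 38 genes. Over all genes r was 0.80 and rho 0.70. Below 0 in both genotypes were 26 genes, and 7 were above 0 in both. Those 7 count the direction only and take in differences near 0.

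**Figure D4:**
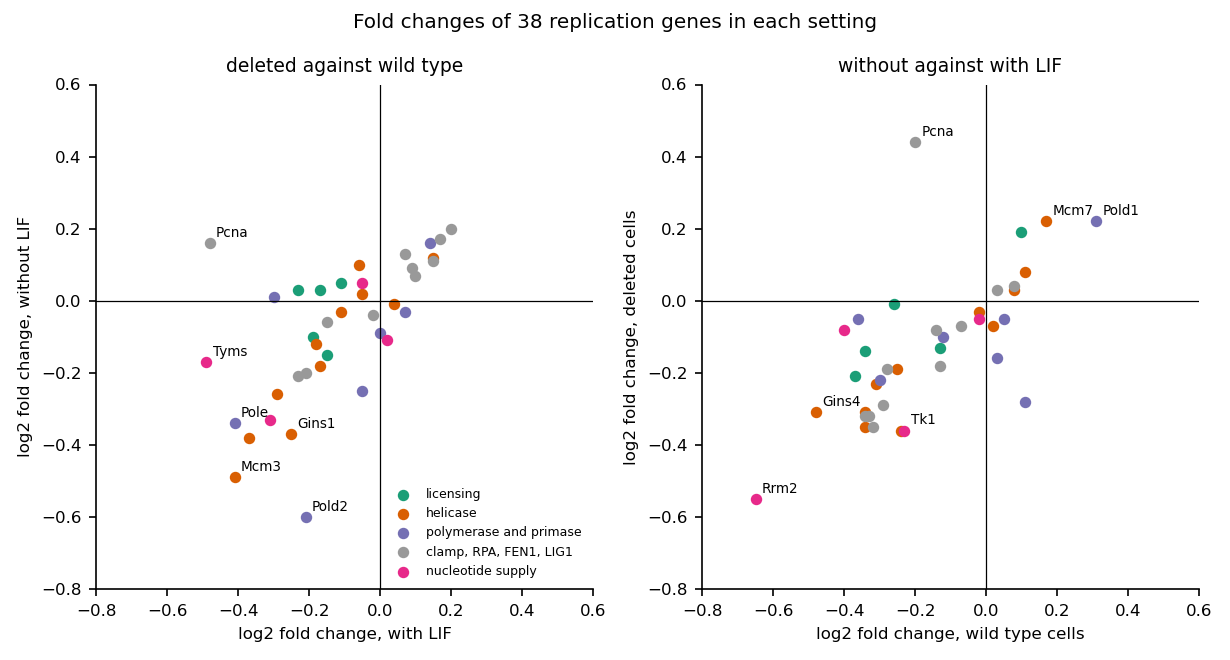
Log2 fold changes of the 38 genes in the 2 cultures for the deletion (left panel) and in the 2 genotypes for LIF withdrawal (right panel), one point per gene. Below 0 on both axes lie 19 of the 38 genes in the left panel (r = 0.63) and 26 in the right panel (r = 0.67).

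No gene of the 38 passed the test of the interaction, which asks whether the deletion effect differed between cultures, and 0 had an unadjusted p under 0.05. Of all 9527 genes 0.021% (2 genes) were called there, and 720 had an unadjusted p under 0.05. The smallest adjusted p was that of Orc6, 0.771, with a difference of 0.25 ± 0.14. The intervals of 37 of the 38 interactions lay within 1 log2 unit of 0 and those of 26 within 0.5. The widest was that of Pcna, -0.24 to 1.52, so for Pcna a sizeable difference between cultures is within the error.

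Mean levels over the 38 genes summarise the 4 groups. The mean log2 intensity per array was 9.57 to 9.62 in deleted cells without LIF, 9.71 to 9.75 in deleted cells with LIF, 9.64 to 9.71 in wild type cells without LIF and 9.82 to 9.87 in wild type cells with LIF. The 3 wild type arrays with LIF were the highest, the 3 deleted arrays without LIF the lowest, and deleted cells with LIF and wild type cells without LIF adjoined at 9.71. In the helicase group the ranges were 10.13 to 10.19, 10.28 to 10.33, 10.29 to 10.35 and 10.44 to 10.48 in the same order of groups. In the clamp group deleted cells without LIF, at 9.78 to 9.86, and wild type cells without LIF, at 9.74 to 9.82, overlapped. With LIF, deleted cells had clamp means of 9.93 to 9.96 and wild type cells 9.94 to 10.01. Nucleotide supply genes ran at 9.28 to 9.40 in deleted cells without LIF, 9.56 to 9.64 in deleted cells with LIF, 9.43 to 9.52 in wild type cells without LIF and 9.69 to 9.90 in wild type cells with LIF. These means are a description with no test.

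**Figure D5:**
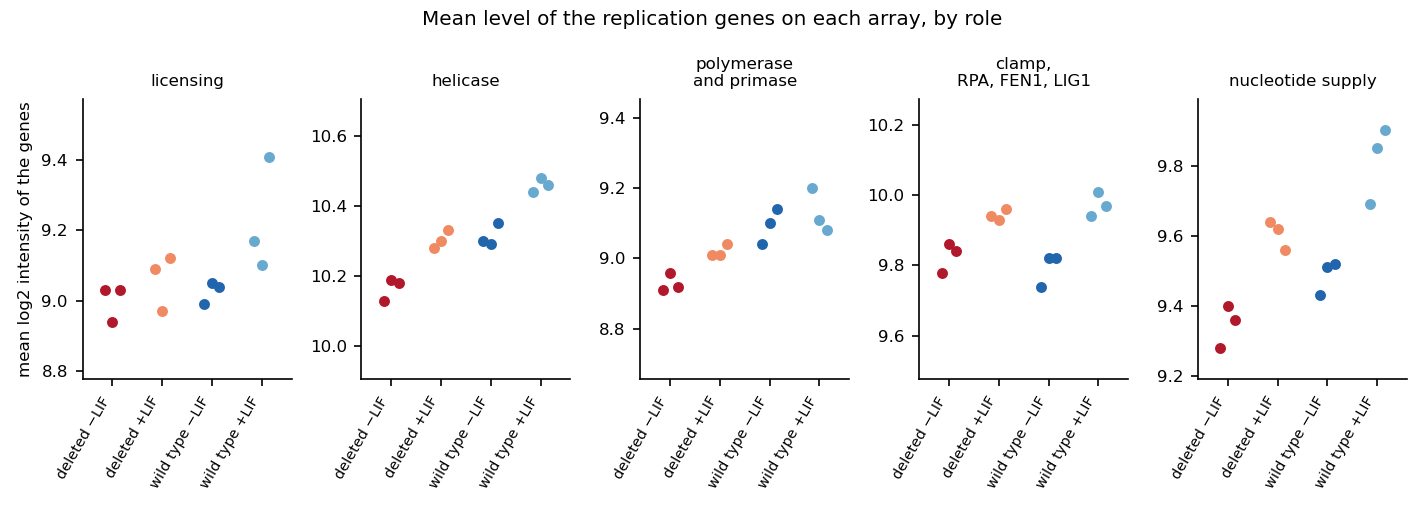
Mean log2 intensity over the measured genes of each role on each of the 12 arrays, by group, with vertical axes of equal span. Helicase and nucleotide supply means are highest in wild type cells with LIF and lowest in deleted cells without LIF, whereas clamp means separate the cultures and overlap between genotypes.

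The standard deviation between arrays of a group had a median of 0.13 over these genes, against 0.17 over all genes. After Pcna it was largest for Tyms (0.30), Prim1 (0.28) and Mcm7 (0.25). The median standard error of a difference between groups of 3 was 0.13 over all genes, for the deletion with LIF. The smallest difference called among these genes was -0.31, that of Mcm6 above. Detection was complete, on all 12 arrays, for 35 of the 38 genes, the exceptions being Orc2, Prim1 and Rfc3. Of the 38 genes, 15 had more than 1 measured probe and 23 had 1, so most results rest on a single probe.

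Another 42 genes of the pathway were looked at, of which 36 were measured. Deletion with LIF lowered 1 of them (2.78%, against 2.77% of all genes), Orc5, another subunit of the origin recognition complex (-0.48, adjusted p = 0.0369), and 0 were higher. The blocked fit called 3 lower (8.33%, against 7.56%): Orc5, the fork protection gene Timeless and the thymidylate kinase gene Dtymk. Deletion without LIF left 0 lower, against 3.85% of all genes, and raised 1, Tk2, the mitochondrial thymidine kinase (0.40, adjusted p = 0.0293). There the blocked fit called Orc5 lower as well (-0.39, blocked adjusted p = 0.0284). In both cultures these shares were near or below those of all genes.

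On withdrawal in wild type cells 7 of the 36 fell (19.4%, against 9.58% of all genes) and 0 rose. Shmt1, a serine hydroxymethyltransferase that feeds thymidylate synthesis, changed most (-0.73, adjusted p = 0.00263). Next came Umps of pyrimidine synthesis (-0.56, adjusted p = 0.0357) and Tipin of the fork protection complex (-0.52, adjusted p = 0.0157). The histone chaperone gene Asf1b (-0.40), the clamp loader factor Chtf18 (-0.39), the polymerase epsilon subunit Pole4 (-0.39) and the p53-inducible reductase subunit Rrm2b (-0.39) also fell. In deleted cells 0 of the 36 passed, against 5.45% of all genes lower. An unadjusted p under 0.05 was found for 5 of the 36, against 2304 of all 9527 genes. The blocked fit called 4 lower there (11.1%, against 9.74%): Shmt1, Dtymk, Tipin and Cdc45, which activates the helicase ring. The medians were -0.10 and -0.04 for the deletion with and without LIF, and -0.14 and -0.09 for withdrawal in wild type and deleted cells.

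Cell cycle genes outside replication were read in the same fit. Of 10 genes of G2 and mitosis, 6 were measured, and their mean log2 intensity was 10.85 to 11.01 in deleted cells without LIF, 10.80 to 10.86 in deleted cells with LIF, 10.90 to 10.93 in wild type cells without LIF and 10.70 to 10.82 in wild type cells with LIF. In them Plk1, a mitotic kinase, rose on withdrawal in wild type cells (0.40, adjusted p = 0.0344), and Birc5 fell in deleted cells (-0.41, adjusted p = 0.0347). Among 7 CDK inhibitor genes, Cdkn2d rose with the deletion in LIF (0.59, adjusted p = 0.0264). The blocked fit called 4 of the 7 higher there, Cdkn2d, Cdkn2a, Cdkn1a and Cdkn1c, against 12.1% of all genes. Of them Cdkn2a (adjusted p = 0.0869), Cdkn1c (0.21) and Cdkn1a (0.282) did not pass the fit without the block. Cdkn2a was near the detection floor, with means of 6.93 in deleted and 6.47 in wild type cells with LIF. Without LIF the blocked fit called 2 higher in deleted cells, Cdkn2a (0.45) and Cdkn1a (0.53), against 10.8% of all genes. The fit without the block called 0 there. On withdrawal in wild type cells Cdkn1c rose (0.86, adjusted p = 0.0145) and Cdkn1a fell (-0.53, adjusted p = 0.0441).

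Means over the 9 ES cell markers were 9.55 to 10.02 in deleted cells without LIF, 10.82 to 11.10 in deleted cells with LIF, 9.78 to 10.13 in wild type cells without LIF and 11.11 to 11.41 in wild type cells with LIF. On withdrawal 5 of the 9 fell in wild type cells and 6 in deleted cells, and 0 rose. With the deletion in LIF, 8 of the 9 differences were below 0 (88.9%, against 46.2% of all genes), with a median of -0.35. Pou5f1 fell (-0.50, adjusted p = 0.0277) and the other 8 did not pass. The blocked fit called 3 lower there (33.3%, against 7.56% of all genes): Pou5f1, Nanog and Zfp42. With the deletion without LIF the markers were mixed, 5 of the 9 below 0 (55.6%, against 49.5% of all genes). Without LIF, Pou5f1 fell (-0.87, adjusted p = 0.00124), Dppa5a rose (0.42, adjusted p = 0.0245), Esrrb differed by 0.32 and Klf4 by 0.23, and the median of the 9 was -0.03.

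Markers of other cell types also moved with both comparisons. Of 7 endoderm markers 3 were measured, with means of 7.87 to 7.98 in deleted cells without LIF, 7.59 to 7.81 in deleted cells with LIF, 7.34 to 7.65 in wild type cells without LIF and 6.82 to 7.27 in wild type cells with LIF, while Gata4, Sox17, Sox7 and Afp did not pass the detection filter. Amn rose with the deletion (1.59 with LIF and 0.85 without it). Dab2 rose with the deletion in LIF (0.50) and on withdrawal (1.43 in wild type and 1.00 in deleted cells). Gata6, the third measured marker, passed in no comparison. It differed by -0.05 with the deletion in LIF (adjusted p = 0.876) and was called higher without LIF in the blocked fit only. On withdrawal 1 of the 3 differences was below 0 in each genotype, and neither passed the test. In wild type cells it was that of Gata6 (-0.30), and in deleted cells that of Amn (-0.54). Of 6 trophoblast markers 3 were measured, with means of 9.59 to 10.18 in deleted cells without LIF, 8.88 to 9.53 in deleted cells with LIF, 9.61 to 9.76 in wild type cells without LIF and 8.54 to 9.05 in wild type cells with LIF; Cdx2, Elf5 and Hand1 did not pass the filter. Krt18 rose on withdrawal in wild type (1.34) and deleted cells (1.01), and Krt8 in wild type cells (1.04). Eomes, the third measured trophoblast marker, passed in no comparison. The lowest of the 3 differences on withdrawal was 0.37 in wild type and -0.04 in deleted cells. Both keratins are also made by other epithelial cells.

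Nes, the 1 measured neuroectoderm marker of 4, rose on withdrawal in wild type (0.84) and deleted cells (0.58), reading 7.01 to 7.57 in deleted cells without LIF, 6.51 to 6.80 in deleted cells with LIF, 7.75 to 7.79 in wild type cells without LIF and 6.60 to 7.24 in wild type cells with LIF. Sox1, Pax6 and Tubb3 did not pass the filter. Of 6 fibroblast markers 2 were measured, with means of 7.62 to 7.96 in deleted cells without LIF, 8.24 to 8.31 in deleted cells with LIF, 7.14 to 7.65 in wild type cells without LIF and 7.31 to 7.65 in wild type cells with LIF. These are Thy1 (1.06) and Col1a1 (0.51), which were called higher with the deletion in LIF, while Col1a2, Col3a1, Postn and Dcn did not pass the filter. Col1a1 was near the detection floor, with means of 6.62 in deleted and 6.11 in wild type cells with LIF. Of these 2 genes, 1 was detected on each wild type array and 2 on each deleted array with LIF. The Col1a1 difference is therefore one of detection as much as of level. The 1 measured mesoderm marker of 4, Kdr, passed in none of the comparisons. The part of changes in cell type or cell cycle in the results above was not tested.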

How the data were processed

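Probe values came from 12 arrays. Per the file headers, the deposited non-normalized table gave mean bead intensity and a detection p-value per probe. The authors' processed intensity values were on a linear scale, with medians of 125.8 to 125.9 on each array. GenomeStudio is named in the submitters' processing notes, and its settings are not given in the sources used here. The processed intensities were used, since the tables' sample names conflict, and detection p-values followed each array by rank order, a match by values. They were corrected by normexp (offset 50), taken to log2 and quantile normalized. Values near the floor are compressed by the offset, so folds of dim genes are understated.

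Of 45281 probes, 15999 were kept. A model of 4 group means was fitted to the 12 arrays with limma 3.58.1 (R 4.3.3; 8 residual degrees of freedom). The 4 differences and the interaction were tested two-sided, and p-values were adjusted by Benjamini-Hochberg over all kept probes, at 0.05. Each gene is its brightest kept probe (9527 genes). Figures used matplotlib 3.10.9, and the fit was tested on simulated data. Probe names came from the platform annotation: 34885 probes had 1 symbol, 18 several and 10378 none. All members were described by role, with values per array for every called member and the largest difference of each role. The members and lists were chosen with earlier results of these data known.

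The labels number the arrays of each group 1 to 3. Correlations of same-numbered arrays' deviations from their group means were 0.29 to 0.48 for the deletion with LIF, 0.25 to 0.67 without LIF and 0.30 to 0.55 for withdrawal in deleted cells, all over 0.1, so the block is given there. In wild type cells they were -0.05 to 0.50. The pairing across cultures rests on the naming too. Alternatives changed the background correction, scaling, filter, probe set, arrays fitted and block. The number of arrays limits the precision.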

Additional observations from a re-analysis of the deposited data

How the results depend on the processing

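Counts of called genes moved with the processing, and of 13 named results that passed, 0 reversed under any alternative, 3 held whichever of the 12 arrays was left out (Rrm2 in both genotypes and Gins4 in wild type cells) and 1 passed all 21 alternatives (Rrm2 in wild type cells). Counts are given for the deletion with LIF, the deletion without LIF, withdrawal in wild type cells and withdrawal in deleted cells, in that order, where the main settings called 1, 2, 5 and 3. Taking log2 of the deposited values as given called 2, 3, 9 and 5, an offset of 16 called 0, 1, 3 and 2, no detection filter called 0, 0, 2 and 1, and only probes detected on all 12 arrays (35 genes) called 1, 3, 7 and 4. With 1 probe per gene tested the counts were 1, 3, 6 and 3. Median scaling of the non-normalized intensities called 0, 0, 1 and 0, and moved the median of all genes by at most 0.09. Fitting only the groups compared called 0, 0, 2 and 1, with fewer samples. Replicate number as a block called 5, 5, 12 and 7. In wild type cells, where array 2 did not pair, these were 11 lower and 1 higher (Pold1). The 11 are 28.9% of the 38, against 14.7% of all genes called lower by that fit, which called 1490 of all 9527 genes higher. Leaving out 1 array gave 0 to 2, 0 to 2, 2 to 6 and 1 to 3. Leaving out array 1 of all 4 groups, chosen after seeing the data, called 4, 2, 5 and 2. The interaction called 0 under all 20 alternatives run; fitting only the groups compared has none. Calls over all genes were counted for the main settings and the block only. Under the other alternatives, a change in the members therefore cannot be told from one over the whole array. Except where stated, the cause of the moves in these counts was not tested.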
